A study of Mus musculus with 4 samples.

Results

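The unfolded protein response is the programme by which a cell raises its capacity to fold secreted and membrane proteins in the endoplasmic reticulum (ER). The gene group described here holds 32 genes of that programme, taken by symbol from a written list, out of 31040 features measured. All 32 were found, and none shares its symbol with another feature. By role they are 12 chaperones and co-chaperones, 8 disulfide isomerases and oxidases, 5 genes of ER-associated degradation, 5 genes of translocation into the ER and of glycosylation, and 2 stress sensors. The comparisons described are secretory against crypt cells and knockout against control.

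Proteins bound for secretion enter the ER through the Sec61 channel, receive sugar chains and disulfide bonds there, and are held by chaperones until they are folded. Misfolded chains are pulled back to the cytosol and degraded, and the membrane sensors Ire1, Perk and Atf6 raise transcription of folding genes when unfolded chains accumulate. In the gut, goblet cells make the disulfide-rich mucin Muc2 and Paneth cells make defensins and lysozyme, and both cell types are known for a dense ER; Ern2 is a form of the Ire1 sensor known from mucus-producing epithelium.

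The measurements are single-cell RNA counts from mouse gut organoids, which are small epithelial cultures with stem cells, their dividing progeny and mature cell types. The crypts came from 2 mice, 10 weeks old, of genotype Cbl flox/flox; Cbl-b flox/flox; R26Cre ERT2, in which a tamoxifen-activated Cre, expressed from the broadly active R26 locus, acts on the floxed parts of both genes. The inducible double knockout (iDKO) organoids were grown with 400 nM 4-hydroxytamoxifen for 3 days, and the control organoids of the same mice carry the same alleles and had no 4-hydroxytamoxifen. Each mouse gave 1 iDKO and 1 control library, so n = 2 libraries per group, the numbers 1 and 2 mark the mice, and no group separates the agent from the deletion. Both genes code for E3 ubiquitin ligases that are known to send active growth factor receptors to degradation.

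In total 28597336 and 35592468 UMIs (distinct RNA molecules) were counted over 1702 and 1983 barcodes in iDKO, and 27855911 and 22139560 UMIs over 1208 and 709 barcodes in control. Of these barcodes 1628 and 1903 in iDKO and 1149 and 682 in control passed the cell filters. Median depth per cell was 16080 and 17514 UMIs in iDKO and 19571 and 27457.5 UMIs in control libraries, and in crypt cells 25105 and 24061 UMIs in iDKO and 35294 and 50378 UMIs in control, so iDKO cells were less deeply covered in both mice. Clusters were named from marker genes, with the 32 genes and a wider list of ER genes kept out of the clustering and out of the markers. The secretory class joins goblet-like, Paneth-like and enteroendocrine-like cells (302, 503, 302 and 139 cells in iDKO 1, iDKO 2, control 1 and control 2), and the crypt class joins stem-like and cycling-like cells (777, 759, 422 and 159 cells). Markers of erythroid cells were at 0 UMIs in all cells of every library, and summed mesenchymal markers reached at most 0.174 CPM and immune markers at most 2.47 CPM. Levels are summed UMIs of a class in a library, in TMM-scaled CPM, the UMIs of a gene scaled to a common total, and since UMIs tag the end of a transcript they are compared within a gene only. The levels of Cbl, Cblb, Muc2 and Tff3 and all marker sums are CPM without TMM scaling. In crypt cells Cbl had 11.7 and 9.85 CPM in iDKO against 17.8 and 21.4 CPM in control, and Cblb had 2.32 and 0.265 CPM in iDKO against 4.54 and 3.59 CPM in control, both lower in iDKO of each mouse; the deleted exons and the place of the tag are not given in the sources used here.

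Promoter elements are shown first, because the transcription factors released by the sensors are known to act through such short elements in folding genes. RefSeq promoter windows (GRCm38.p6, 250 bases before to 50 bases after the start) were at hand for 25 of the 32 genes. The ER stress response element, searched on both strands as CCAAT and CCACG with 9 free bases between them, was in 9 of the 25 windows (36.0%), against 37 of 27025 genes with a window (0.137%). Its elements are given here 5′ to 3′ on the strand that holds them, with the fixed letters in capitals and the 9 free bases in lower case. Those of Calr, Creld2 and Ero1lb and the near element of Hsp90b1 lie on the strand opposite to the gene. The free bases differ in all 10 elements shown.
Hspa5: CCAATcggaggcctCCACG
Hsp90b1, far element: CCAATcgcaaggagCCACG
Hsp90b1, near element: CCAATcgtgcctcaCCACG
Pdia6: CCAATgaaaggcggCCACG
Calr: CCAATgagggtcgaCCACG
Creld2: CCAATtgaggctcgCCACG
Dnajc3: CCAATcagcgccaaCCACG
Canx: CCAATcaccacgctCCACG
Syvn1: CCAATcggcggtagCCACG
Ero1lb: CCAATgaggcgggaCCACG

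The second form of the element, ATTGG and CCACG with 1 free base between them, was in 2 of the 25 windows (8.0%), against 12 of 27025 (0.0444%), in both cases on the strand of the gene. The Herpud1 element ends 41 bases before the start and the Dnajb11 element lies just after it.
Herpud1: ATTGGgCCACG
Dnajb11: ATTGGcCCACG
The core TGACGTGG of the unfolded protein response element was in 2 of the 25 windows (8.0%), against 193 of 27025 (0.714%).
Txndc5: TGACGTGG
Txndc11: TGACGTGG
Any of the 3 motifs was in 13 of the 25 windows (52.0%), against 239 of 27025 (0.884%), and in the wider ER list the first element was in 1 of 108 windows (0.926%), that of Derl3. There the second form was in 1 (0.926%), that of Krtcap2, and the short core in 5 (4.63%). A match of letters describes a window and does not show binding. Manf, Hyou1, Sec61a1, Ern2, Atf6, Rcn1 and Ostc are named without a window.

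3 upstream windows of 250 bases are shown in full as examples of a single full element, of a pair and of the short core, each on the strand of its gene with the whole matched run in capitals. Hspa5 (chr2:34771840-34772089, plus strand) has a single element whose near end lies 46 bases before the start. Hsp90b1 (chr10:86705445-86705694, minus strand) has 2 elements in opposite orientation, 193 and 88 bases before the start. The nearer of them reads here as its reverse complement. Txndc5 (chr13:38527915-38528164, minus strand) has only the short core. Starts are those of the RefSeq windows and differ from the GRCm38 gene bounds. By those bounds Hspa5 begins at 34771970, inside its window. The Txndc5 gene reaches from 38500079 to 38528824, so its window lies within the gene.
Hspa5: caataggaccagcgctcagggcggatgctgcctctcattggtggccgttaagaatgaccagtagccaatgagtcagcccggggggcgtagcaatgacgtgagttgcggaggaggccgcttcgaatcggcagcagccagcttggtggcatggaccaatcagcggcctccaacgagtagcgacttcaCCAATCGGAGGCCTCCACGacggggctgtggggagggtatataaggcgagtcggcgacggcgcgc
Hsp90b1: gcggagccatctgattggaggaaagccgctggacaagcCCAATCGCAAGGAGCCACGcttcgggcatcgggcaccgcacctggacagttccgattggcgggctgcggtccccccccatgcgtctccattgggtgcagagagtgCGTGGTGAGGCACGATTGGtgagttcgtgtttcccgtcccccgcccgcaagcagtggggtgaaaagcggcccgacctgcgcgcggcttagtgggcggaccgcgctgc
Txndc5: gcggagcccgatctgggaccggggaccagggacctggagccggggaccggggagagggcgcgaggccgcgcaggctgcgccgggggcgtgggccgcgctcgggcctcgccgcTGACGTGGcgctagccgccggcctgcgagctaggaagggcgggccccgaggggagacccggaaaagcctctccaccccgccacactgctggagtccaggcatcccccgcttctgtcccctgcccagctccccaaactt

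The first comparison asks how far the folding genes differ between the secretory and the crypt cells of these organoids. All 32 genes were higher in secretory cells than in crypt cells in every library, without overlap between the classes. Of all genes, 27.7% had every secretory level above every crypt level and 24.5% every one below. All 32 members passed the edgeR quasi-likelihood test with the library as a block (Benjamini-Hochberg adjusted p under 0.05). Of all 11333 genes tested, 34% were called higher and 32.5% lower. The median log2 fold change, secretory over crypt, was 1.59 over the 32 genes and 0.02 over all genes. It was 1.52 for the chaperones, 2.06 for the disulfide isomerases and oxidases, 1.98 for the degradation genes and 1.30 for the translocation and glycosylation genes. The size ran from 0.50 ± 0.07 for Canx to 6.38 ± 0.19 for Rcn1, and iDKO and control libraries both enter the fit.

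Among the chaperones, Hspa5 (ENSMUSG00000026864, GRCm38 chromosome 2, 34771970 to 34777547, plus strand), the Hsp70-type chaperone BiP that also holds the sensors inactive, had 915 and 1047 CPM in iDKO and 806 and 873 CPM in control secretory cells, against 368 and 346 CPM in iDKO and 264 and 247 CPM in control crypt cells. Its mean was 910 ± 102 CPM in secretory and 307 ± 59.7 CPM in crypt cells (SD, n = 4 libraries each), a log2 fold change of 1.58 ± 0.07, adjusted p = 4.5e-08. Hsp90b1, the ER form of Hsp90, had 882 and 992 CPM in iDKO and 746 and 815 CPM in control secretory cells, against 541 and 511 CPM in iDKO and 428 and 368 CPM in control crypt cells. Both chaperones were thus higher in each secretory sum, Hsp90b1 by less (0.90 ± 0.07). Hyou1, which recharges BiP with nucleotide, had 62.8 and 67 CPM in iDKO and 64.1 and 65.4 CPM in control secretory cells, against 20.4 and 18.6 CPM in iDKO and 16.6 and 18 CPM in control crypt cells (1.82 ± 0.08). Sdf2l1, a stress-induced partner of BiP's J-domain co-chaperones, had 214 and 257 CPM in iDKO and 162 and 223 CPM in control secretory cells, against 74.1 and 64.7 CPM in iDKO and 52 and 51.7 CPM in control crypt cells (1.81 ± 0.09). For both genes the lowest secretory level lay above the highest crypt level.

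The J-domain co-chaperones, which bring substrates to BiP, differed among themselves. Dnajb9 had 35.9 and 36.4 CPM in iDKO and 42.1 and 40.4 CPM in control secretory cells, against 11.9 and 9.97 CPM in iDKO and 11.8 and 13.1 CPM in control crypt cells (1.74 ± 0.09). Dnajc3 had a fold change of 1.74 ± 0.06, against 0.66 ± 0.06 for Dnajb11, the second smallest of the 32. Manf, a small protein held in the ER and released under stress, had 576 and 699 CPM in iDKO and 461 and 517 CPM in control secretory cells, against 205 and 234 CPM in iDKO and 174 and 207 CPM in control crypt cells (1.45 ± 0.05). Creld2, a stress-induced ER protein, had 87.9 and 105 CPM in iDKO and 68 and 77.1 CPM in control secretory cells, against 35.4 and 35.5 CPM in iDKO and 25.6 and 29 CPM in control crypt cells (1.43 ± 0.07). For neither gene did the classes overlap. The lectin chaperones, which bind newly added sugar chains, were unequal: soluble Calr had 1306 and 1301 CPM in iDKO and 1193 and 1285 CPM in control secretory cells, against 587 and 497 CPM in iDKO and 457 and 378 CPM in control crypt cells (1.42 ± 0.08). Membrane-bound Canx had 314 and 303 CPM in iDKO and 347 and 319 CPM in control secretory cells, against 253 and 232 CPM in iDKO and 232 and 192 CPM in control crypt cells (0.50 ± 0.07), the smallest difference of the 32 and still without overlap.

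Rcn1 (ENSMUSG00000005973, GRCm38 chromosome 2, 105386291 to 105399319, minus strand), a calcium-binding protein of the ER lumen, had 31.6 and 53.4 CPM in iDKO and 22.3 and 17.3 CPM in control secretory cells, against 0.320 and 0.453 CPM in iDKO and 0.368 and 0.465 CPM in control crypt cells. The crypt sums held 7 and 9 UMIs in iDKO and 6 and 4 UMIs in control, so the fold change of 6.38 ± 0.19, adjusted p = 2.5e-09 rests on few counts on that side. Rcn1 was thus near the 3-UMI limit in crypt sums and measurable in every secretory sum. Its secretory level was higher in both iDKO libraries than in both controls.

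The disulfide isomerases and oxidases, which form and shuffle the bonds of mucins and defensins, ran from 0.91 ± 0.06 for Pdia4 to 3.38 ± 0.14 for Pdia5. P4hb, protein disulfide isomerase, had 722 and 733 CPM in iDKO and 776 and 699 CPM in control secretory cells, against 151 and 129.6 CPM in iDKO and 138 and 97.2 CPM in control crypt cells (2.52 ± 0.08). Pdia6 had 728 and 829 CPM in iDKO and 632 and 741 CPM in control secretory cells, against 282 and 273 CPM in iDKO and 211 and 201 CPM in control crypt cells (1.61 ± 0.07), and Pdia4 had 130.4 and 117 CPM in iDKO and 119 and 129.9 CPM in control secretory cells, against 76.7 and 58.6 CPM in iDKO and 62.8 and 66.4 CPM in control crypt cells (0.91 ± 0.06). Pdia5 had 84.2 and 90.8 CPM in iDKO and 91.2 and 91.6 CPM in control secretory cells, against 11 and 9.62 CPM in iDKO and 7.17 and 5.70 CPM in control crypt cells (3.38 ± 0.14). The fold change of Pdia5 was thus larger than those of Pdia4, Pdia6 and Pdia3 (1.27 ± 0.07), members of the same enzyme family. Txndc5 had 469.6 and 534 CPM in iDKO and 429.8 and 567 CPM in control secretory cells, against 75.6 and 75.1 CPM in iDKO and 69.9 and 57.6 CPM in control crypt cells (2.83 ± 0.10). Txndc11, a membrane-bound relative, had 39.3 and 50.05 CPM in iDKO and 42 and 42.4 CPM in control secretory cells, against 16.8 and 16.4 CPM in iDKO and 17 and 14.8 CPM in control crypt cells (1.42 ± 0.09). Ero1lb, the oxidase that reloads the isomerases, was the sparsest of the class, with 11.1 and 5.99 CPM in iDKO and 12.3 and 5.40 CPM in control secretory cells, against 0.594 and 0.655 CPM in iDKO and 1.23 and 1.16 CPM in control crypt cells (3.35 ± 0.27). The secretory Ero1lb levels were higher in both libraries of mouse 1 than in both of mouse 2.

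All 5 degradation genes were higher in secretory cells. Sel1l and Syvn1 are the scaffold and the ubiquitin ligase of the main ER degradation complex, and Edem1 and Edem2 pick out misfolded glycoproteins for it. Sel1l had 60.9 and 53.6 CPM in iDKO and 67.5 and 65.7 CPM in control secretory cells, against 21.1 and 19.4 CPM in iDKO and 20.8 and 20.6 CPM in control crypt cells (1.59 ± 0.07). Edem1 had 64.8 and 74.9 CPM in iDKO and 70.1 and 79.3 CPM in control secretory cells, against 16.5 and 15 CPM in iDKO and 14.1 and 15.3 CPM in control crypt cells (2.24 ± 0.09). Herpud1, a stress-induced partner of the ligase, had 219.5 and 251 CPM in iDKO and 195 and 264 CPM in control secretory cells, against 53.2 and 55.5 CPM in iDKO and 53.4 and 75.5 CPM in control crypt cells (1.98 ± 0.07). The crypt levels of these 3 genes varied little between libraries except that of Herpud1, which was highest in control 2. Syvn1 (1.60 ± 0.10) and Edem2 (2.56 ± 0.08) differed in the same direction.

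Of the translocation genes, Sec61b, a subunit of the channel, had 1105 and 1526 CPM in iDKO and 1151 and 1439.8 CPM in control secretory cells, against 457 and 588 CPM in iDKO and 457 and 496 CPM in control crypt cells (1.38 ± 0.05). The fold change was 1.77 ± 0.08 for Sec61a1, the channel's pore, 1.30 ± 0.05 for Ssr3 and 0.94 ± 0.05 for Ssr1, both of the complex beside the channel, and 1.03 ± 0.05 for Ostc of the glycosylating enzyme. The sensors stood apart from each other in size. Ern2 (ENSMUSG00000030866, GRCm38 chromosome 7, 122169893 to 122186207, minus strand) had 91.5 and 107 CPM in iDKO and 103 and 153 CPM in control secretory cells, against 2.42 and 3.38 CPM in iDKO and 1.53 and 0.581 CPM in control crypt cells (5.62 ± 0.24, adjusted p = 2.8e-08), and the crypt sums were low throughout. Atf6, the sensor that is cut to release a transcription factor, had 30.1 and 34.4 CPM in iDKO and 34 and 35.3 CPM in control secretory cells, against 9.60 and 11.4 CPM in iDKO and 11.8 and 14.5 CPM in control crypt cells (1.52 ± 0.09). Both sensors were above crypt in every library, Ern2 by far the more.

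**Figure D1:**
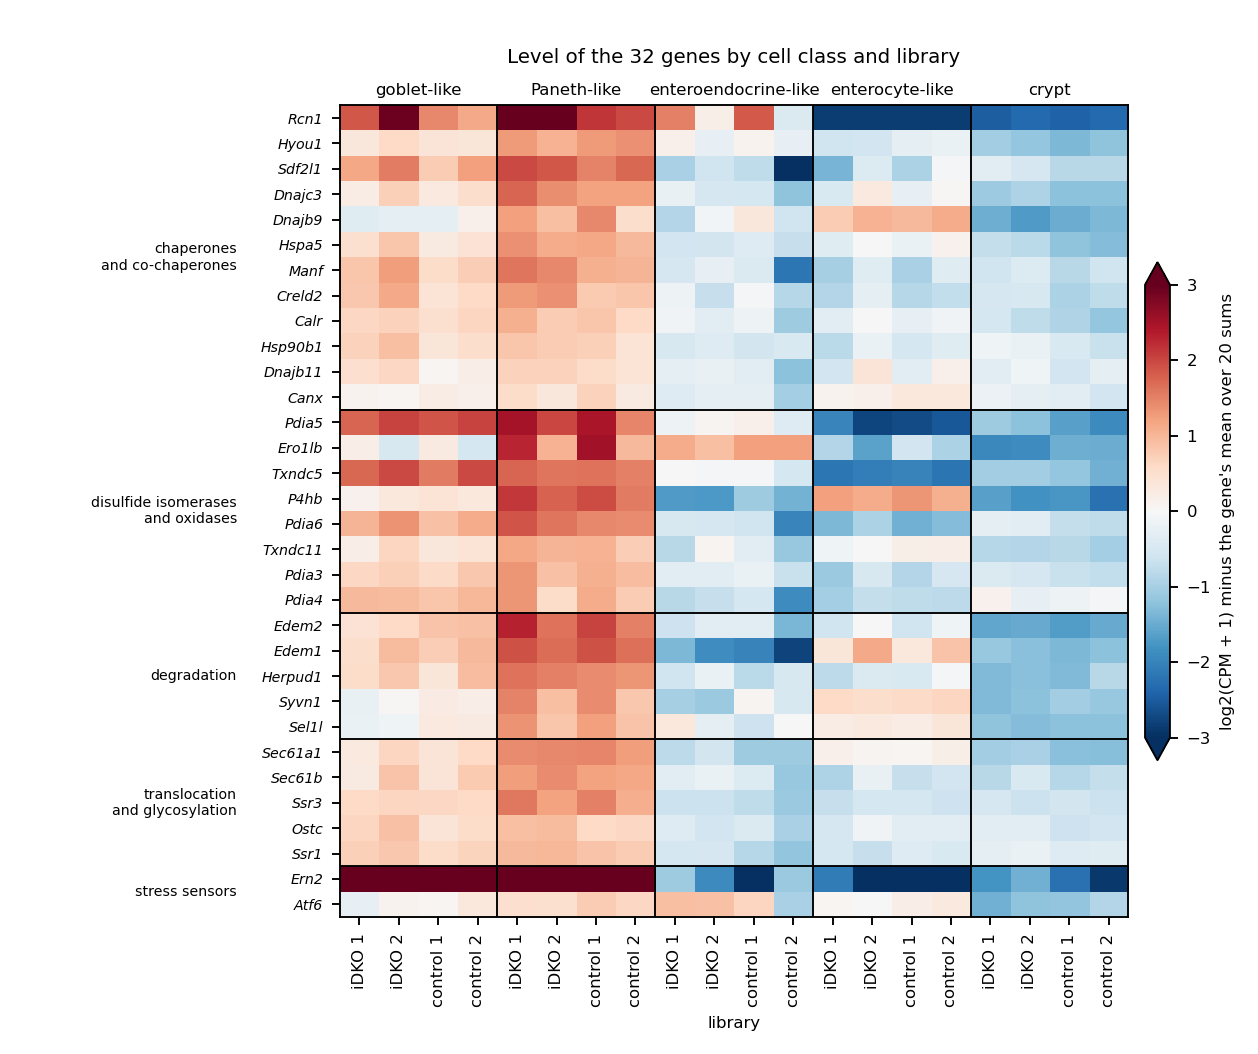
Heat map of the 32 genes (rows, grouped by role) in 20 sums, 5 cell classes by 4 libraries (columns); colour gives log2(CPM + 1) minus the gene's mean over the 20 sums. Paneth-like columns are above the mean for all 32 genes, most crypt entries are below it, and enterocyte-like columns are above it for P4hb, Dnajb9 and Edem1 but below it for Pdia5, Txndc5 and Rcn1.

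Split by class in a fit of 20 sums, Paneth-like and goblet-like cells each had all 32 genes above crypt. In Paneth-like cells the median log2 fold change was 2.27 (27.5% of all 11402 genes called higher and 28.3% lower), and in goblet-like cells it was 1.46 (23.8% called higher and 22.8% lower). Scaled to total UMIs alone, with no TMM factor, Paneth-like cells had 28 of 32 called higher and a median of 1.5, with the median of all genes at −0.79 under that scaling. Rcn1 had the largest fold change in both classes, with 60.3 and 70.7 CPM in iDKO and 31.1 and 27.8 CPM in control Paneth-like cells (6.96 ± 0.37) and 25.3 and 54.3 CPM in iDKO and 18.7 and 15 CPM in control goblet-like cells (6.19 ± 0.34). Canx had the smallest, with 406 and 353 CPM in iDKO and 451 and 335 CPM in control Paneth-like cells (0.81 ± 0.12) and 299 and 289 CPM in iDKO and 326 and 311 CPM in control goblet-like cells (0.48 ± 0.11), against 245 and 225 CPM in iDKO and 223 and 186 CPM in control crypt cells. By mean TMM-scaled level over the 4 libraries, 31 of the 32 genes were highest in Paneth-like cells, and Txndc5 was highest in goblet-like cells. With total UMIs alone, 13 of the 32 had a positive fold change of Paneth-like over goblet-like cells. The lowest class was crypt for 15 genes, enteroendocrine-like for 10 and enterocyte-like for 7.

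The Paneth-like and goblet-like classes share transcripts, so neither name marks a pure cell type. Without TMM scaling, Muc2 had 1214 and 1283 CPM in iDKO and 1357 and 949 CPM in control Paneth-like cells. In goblet-like cells it had 614 and 1367 CPM in iDKO and 870 and 1463 CPM in control. The defensin Defa24 had 14680 and 27929 CPM in iDKO and 24118 and 45541 CPM in control goblet-like cells. Directly compared, Paneth-like cells had 20 genes higher than goblet-like cells and 0 lower (11.3% of all genes called higher and 10.9% lower), with a median of 0.60. All 5 degradation genes were among the 20, from 0.83 ± 0.13 for Herpud1 to 1.21 ± 0.17 for Edem2. P4hb had 1939.8 and 1541 CPM in iDKO and 1749 and 1322 CPM in control Paneth-like cells, against 488 and 562 CPM in iDKO and 597 and 558 CPM in control goblet-like cells (1.56 ± 0.13, adjusted p = 5.6e-09). Ero1lb had 28.5 and 11.3 CPM in iDKO and 33.6 and 10.8 CPM in control Paneth-like cells, against 5.86 and 3.33 CPM in iDKO and 6.22 and 3.21 CPM in control goblet-like cells (2.15 ± 0.28, adjusted p = 6.1e-06). Txndc5 had 513 and 462 CPM in iDKO and 476 and 435 CPM in control Paneth-like cells, against 507 and 607 CPM in iDKO and 451 and 601 CPM in control goblet-like cells, and these overlapped (−0.20 ± 0.11, adjusted p = 0.218). With total UMIs alone 6 genes were higher and 11 lower (1.93% of all genes called higher and 60.8% lower), with a median of −0.11 over the 32 genes and −0.72 over all genes, and with cells gated by marker UMIs 4 were higher and 2 lower (1.35% and 0.977% of all genes). P4hb, Ero1lb and Dnajb9 were higher in Paneth-like cells under the TMM scaling (1.32 ± 0.17 for Dnajb9).

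Enteroendocrine-like cells, which secrete hormones rather than mucus or defensins, had a smaller median. In them 17 genes were higher and 2 lower (34.1% of all genes called higher and 30.6% lower), with a median of 0.34. The control 2 sum rests on 10 cells, and without control 1 the count of higher genes was 10. Ero1lb had 12 and 10.3 CPM in iDKO and 13.1 and 13.2 CPM in control enteroendocrine-like cells, against 0.574 and 0.637 CPM in iDKO and 1.18 and 1.13 CPM in control crypt cells (3.80 ± 0.40, adjusted p = 9.6e-09). Atf6 had 51.1 and 50.5 CPM in iDKO and 42.8 and 13.2 CPM in control enteroendocrine-like cells, against 9.28 and 11.1 CPM in iDKO and 11.3 and 14.1 CPM in control crypt cells (1.99 ± 0.20, adjusted p = 3.9e-09), above crypt in 3 of the 4 libraries. Pdia4 had 37.6 and 41.2 CPM in iDKO and 46.3 and 17.6 CPM in control enteroendocrine-like cells, against 74.1 and 57 CPM in iDKO and 60.4 and 64.3 CPM in control crypt cells (−0.70 ± 0.18, adjusted p = 0.00176), and it was lower in each library. Rcn1 was the most different gene, with 19.5 and 7.21 CPM in iDKO and 25 and 4.39 CPM in control enteroendocrine-like cells (5.28 ± 0.56, adjusted p = 4.0e-08). Ern2 was at 4.51 and 2.06 CPM in iDKO and 0 and 4.39 CPM in control enteroendocrine-like cells, which did not differ detectably from crypt (0.08 ± 0.95, adjusted p = 0.954).

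Enterocyte-like cells, the absorptive class, had 16 genes higher and 5 lower than crypt (40.4% of all genes called higher and 36.9% lower), with a median of 0.43. All 5 degradation genes were higher, with a median of 1.57, and of the 8 disulfide isomerases and oxidases 3 were higher and 4 lower. P4hb, which is also the small subunit of the microsomal triglyceride transfer protein, had 1056 and 968 CPM in iDKO and 1118 and 947 CPM in control enterocyte-like cells, against 146 and 126 CPM in iDKO and 133 and 94.2 CPM in control crypt cells (3.04 ± 0.14, adjusted p = 6.4e-16). Dnajb9 had 57.9 and 70.4 CPM in iDKO and 67.6 and 74.8 CPM in control enterocyte-like cells, against 11.5 and 9.71 CPM in iDKO and 11.4 and 12.7 CPM in control crypt cells (2.58 ± 0.15, adjusted p = 1.4e-13). Hspa5 had 458 and 594 CPM in iDKO and 508 and 638 CPM in control enterocyte-like cells, against 356 and 337 CPM in iDKO and 254 and 239 CPM in control crypt cells (0.91 ± 0.14, adjusted p = 2.3e-06). Each of these 3 genes was above crypt in all 4 libraries.

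On the lower side in enterocyte-like cells, Txndc5 had 33 and 35.7 CPM in iDKO and 37 and 32.7 CPM in control enterocyte-like cells, against 73.1 and 73.1 CPM in iDKO and 67.3 and 55.7 CPM in control crypt cells (−0.95 ± 0.12, adjusted p = 2.2e-07). Pdia6 had 131 and 170.2 CPM in iDKO and 121 and 134 CPM in control enterocyte-like cells, against 272 and 266 CPM in iDKO and 203 and 195 CPM in control crypt cells (−0.74 ± 0.15, adjusted p = 8.1e-05). Pdia5 (−1.30 ± 0.27, adjusted p = 0.00014), Pdia4 (−0.72 ± 0.14, adjusted p = 4.0e-05) and Ern2 (−2.41 ± 0.78, adjusted p = 0.00698) were also lower. Ern2 had 1.70 and 0.327 CPM in iDKO and 0.276 and 0 CPM in control enterocyte-like cells, against 2.34 and 3.29 CPM in iDKO and 1.47 and 0.563 CPM in control crypt cells. Its enterocyte-like levels were at or below the level of 3 UMIs in every library, so its size rests on very few counts. Without control 2 the count of lower genes was 9. Rcn1 had 0 UMIs in all 4 enterocyte-like sums, which allows up to 0.574 to 1.76 CPM by library (3 UMIs, counting error only), and crypt levels were within that limit. Among the isomerases and oxidases, P4hb, Txndc11 (1.02 ± 0.13, adjusted p = 1.7e-07) and Ero1lb (1.34 ± 0.38, adjusted p = 0.00246) were thus higher than in crypt, and Pdia4, Pdia5, Pdia6 and Txndc5 lower. iDKO 1 and control 1 drew most of their enterocyte-like cells from different clusters than the mouse 2 libraries.

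**Figure D2:**
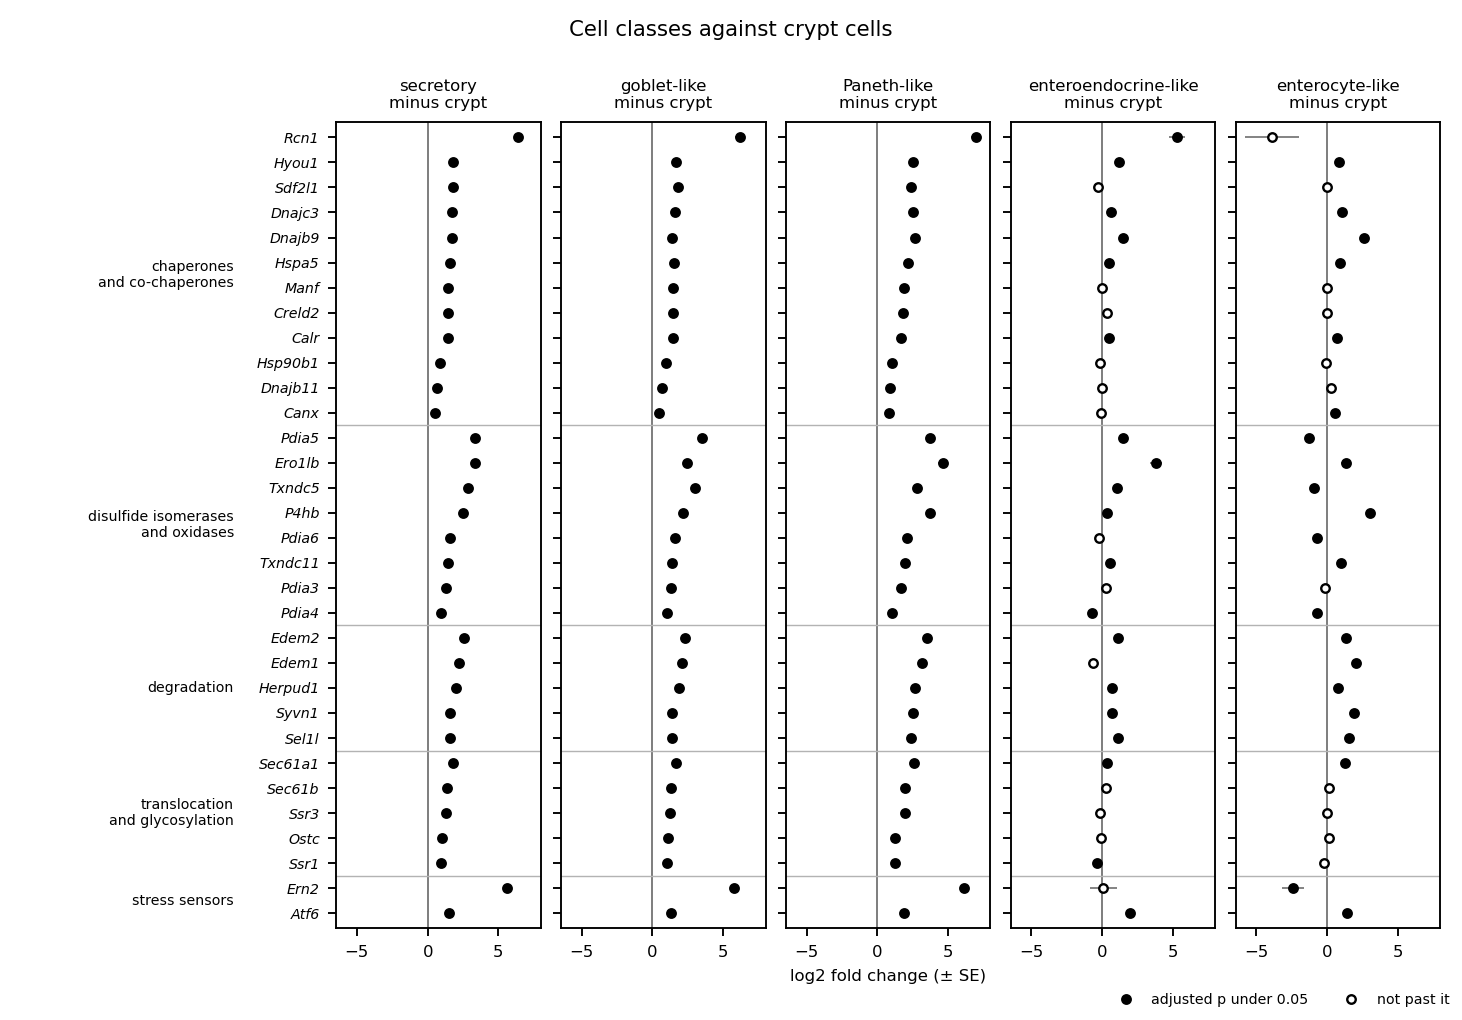
Log2 fold change ± SE of the 32 genes (rows, grouped by role) for the secretory class and 4 single classes against crypt cells, with filled points at adjusted p under 0.05. All points lie right of 0 in the secretory, goblet-like and Paneth-like panels, while the enteroendocrine-like panel has 2 and the enterocyte-like panel 5 filled points left of 0; the open enterocyte-like point of Rcn1 comes from sums with 0 UMIs and has no readable size.

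The goblet-like class holds 2 clusters. The first has Neurog3, Atoh1, Dll1 and Spdef among its leading genes and is called the Dll1 cluster here (75, 117, 58 and 17 cells in iDKO 1, iDKO 2, control 1 and control 2). The second is led by Zg16, Clca1, Tff1 and Fcgbp and is called the Clca1 cluster (67, 154, 101 and 75 cells). Of the 32 genes, 28 were higher in the Clca1 cluster than in the Dll1 cluster in all 4 libraries, 20 of them without overlap, with a median log2 ratio of 0.70, given as a description without a test. Of the 10278 genes tested in the class, 15.8% were higher in the Clca1 cluster in all 4 libraries and 8.17% without overlap, with a median of −0.23. These cluster levels are CPM without TMM scaling. Ern2 differed by 1.44 on the log2 scale, Edem2 by 1.27 and P4hb by 1.00, while Hsp90b1 differed by 0.24, Dnajb11 by 0.16 and Canx by 0.12. Mki67, a gene of dividing cells, had 274 and 326 CPM in iDKO and 219 and 259.7 CPM in control in the Dll1 cluster, against 38.9 and 46.1 CPM in iDKO and 42.9 and 43.2 CPM in control in the Clca1 cluster, with no overlap. The iDKO libraries had a larger part of their goblet-like cells in the Dll1 cluster than the control of the same mouse.

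The rest of the pathway was read from a wider list of 135 ER genes found by symbol. In secretory cells 103 of the 127 tested were higher than in crypt and 8 lower, with a median of 0.75, which is less than the 1.59 of the 32 genes. Agr2, an isomerase known for mucin folding, had 6308 and 12569 CPM in iDKO and 4564 and 7977 CPM in control secretory cells, against 173 and 259.6 CPM in iDKO and 97.5 and 69.1 CPM in control crypt cells (5.76 ± 0.24). Next in size were Kdelr3, a receptor that returns escaped chaperones to the ER (5.54 ± 0.13), Derl3, a degradation factor (4.26 ± 0.24), and the calcium-binding Nucb2 (4.20 ± 0.10). Of the 8 lower genes the log2 fold change was −0.76 ± 0.09 for Bcap29, −0.70 ± 0.06 for Eif2s1, a subunit of the translation factor that Perk phosphorylates, and −0.63 ± 0.08 for Tmx2. Of the signalling arms, Xbp1, the transcription factor spliced by Ire1, was higher by 1.51 ± 0.10, Ern1, the ubiquitous Ire1, by 1.61 ± 0.17 and Eif2ak3, which encodes Perk, by 1.67 ± 0.15. Downstream of Perk, Ddit3 was higher by 1.70 ± 0.12 and Atf4 by 0.55 ± 0.06. Creb3l1, a factor cut like Atf6, was higher by 3.21 ± 0.18. In enterocyte-like cells Ddit3 was higher than in crypt by 3.32 ± 0.17, while Agr2 (−2.48 ± 0.39) and Creb3l1 (−1.68 ± 0.23) were lower.

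The second comparison asks whether loss of Cbl and Cblb alters the folding genes within a class. In crypt cells of each mouse, 20 of the 31 genes tested were higher in iDKO than in its control, 4 were lower and 7 went opposite ways in the mice. Of all 11759 genes, 33.1% were higher in iDKO of both mice and 32.8% lower. With the mouse as a block, edgeR called 11 of the 31 higher in iDKO and 0 lower, where 4.43% of all 11759 genes were called higher and 5.48% lower. The median log2 fold change was 0.20 over the 31 genes and 0.00 over all genes. The 11 are 5 chaperones (Hspa5, Hsp90b1, Sdf2l1, Creld2, Calr), 4 isomerases (Pdia3, Pdia5, Pdia6, P4hb), Ostc and Ern2. Rcn1 was too sparse to be tested. With the group alone, 0 of the 31 passed in either direction, with 0% of all genes higher and 0% lower. That fit leaves 2 residual degrees of freedom, against 1 with the block. In it 9 were higher and 0 lower at an unadjusted p under 0.05. Counts at an unadjusted p, here and below, are given without the share of all genes and are not calls. DESeq2's Wald test without the block called 1 higher (0.221% of all genes).

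Hspa5 had 392 and 366 CPM in iDKO 1 and 2, against 282 and 265 CPM in control 1 and 2 (0.47 ± 0.06, adjusted p = 8.0e-06). The iDKO levels lay above both controls and the step was alike in the mice. Without the block the fold change was 0.47 ± 0.10, adjusted p = 0.382. Pdia6 had 299.9 and 289 CPM in iDKO 1 and 2, against 224 and 215 CPM in control 1 and 2 (0.42 ± 0.07, adjusted p = 6.2e-05). Hsp90b1 had 576 and 541 CPM in iDKO 1 and 2, against 456 and 395 CPM in control 1 and 2 (0.39 ± 0.06, adjusted p = 6.4e-05), and Calr had 625 and 526 CPM in iDKO 1 and 2, against 486 and 405 CPM in control 1 and 2 (0.37 ± 0.06, adjusted p = 0.00012). For all 4 genes iDKO and control did not overlap. Sdf2l1 had 78.9 and 68.4 CPM in iDKO 1 and 2, against 55.4 and 55.4 CPM in control 1 and 2 (0.41 ± 0.08, adjusted p = 0.00137). Creld2 had 37.7 and 37.6 CPM in iDKO 1 and 2, against 27.2 and 31 CPM in control 1 and 2 (0.38 ± 0.10, adjusted p = 0.0101), again without overlap.

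Pdia5 had 11.7 and 10.2 CPM in iDKO 1 and 2, against 7.64 and 6.10 CPM in control 1 and 2 (0.66 ± 0.16, adjusted p = 0.00772). Ern2 had 2.58 and 3.57 CPM in iDKO 1 and 2, against 1.63 and 0.623 CPM in control 1 and 2 (1.27 ± 0.36, adjusted p = 0.0217), from 53 and 67 UMIs in iDKO against 25 and 5 UMIs in control, so its size rests on few counts in control 2. Both genes were above both controls in each iDKO library. P4hb was called higher (0.25 ± 0.08, adjusted p = 0.0351) although its levels overlapped, at 160.3 and 137 CPM in iDKO 1 and 2, against 147 and 104 CPM in control 1 and 2. Ostc (0.23 ± 0.07, adjusted p = 0.0277) and Pdia3 (0.22 ± 0.07, adjusted p = 0.0354) complete the 11. In all, 15 of the 31 genes had both iDKO levels above both controls, 3 had both below (Atf6, Ero1lb, Syvn1) and 13 overlapped. Of all 11759 genes, 19.3% had both iDKO levels above both controls and 20.1% both below.

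The members that did not pass in crypt cells include all 5 degradation genes. Herpud1 had 56.6 and 58.7 CPM in iDKO 1 and 2, against 56.9 and 80.9 CPM in control 1 and 2 (−0.23 ± 0.09, adjusted p = 0.123). Dnajb9 had 12.7 and 10.5 CPM in iDKO 1 and 2, against 12.6 and 14.1 CPM in control 1 and 2 (−0.18 ± 0.14, adjusted p = 0.508). Both were at a level in iDKO 1 close to control 1, and below control 2 in iDKO 2. Atf6 had 10.2 and 12.1 CPM in iDKO 1 and 2, against 12.5 and 15.6 CPM in control 1 and 2 (−0.33 ± 0.14, adjusted p = 0.134). Manf (0.20 ± 0.07, adjusted p = 0.0681), Hyou1 (0.18 ± 0.11, adjusted p = 0.369), Txndc5 (0.23 ± 0.08, adjusted p = 0.0823), Sec61b (0.11 ± 0.06, adjusted p = 0.315), Pdia4 (0.06 ± 0.09, adjusted p = 0.782), Txndc11 (0.04 ± 0.12, adjusted p = 0.877), Edem1 (0.10 ± 0.12, adjusted p = 0.702) and Sel1l (−0.04 ± 0.11, adjusted p = 0.891) did not pass either. Ero1lb was sparse, with 0.633 and 0.693 CPM in iDKO 1 and 2, against 1.31 and 1.25 CPM in control 1 and 2, and lay below control in both mice (−0.95 ± 0.43, adjusted p = 0.18). Of the 5 degradation genes, 0 were called in either direction.

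Values that moved with the group in crypt cells are as follows, and their part in the result was not tested. Median depth per crypt cell was lower in iDKO in both mice, as given above. A cycling-like cluster led by Slc7a11, Phlda3 and Gdf15 held 63 and 279 crypt cells in iDKO, against 27 and 48 in control. Of the 777 and 759 crypt cells in iDKO, and 422 and 159 in control, that was a larger part in iDKO of each mouse. The part differed more between the mice than between the groups. The 12 goblet markers summed to 83.9 and 129 CPM in iDKO against 208 and 190.1 CPM in control. The Paneth markers summed to 550.05 and 527 CPM in iDKO against 809 and 864 CPM in control. Both sums were lower in iDKO of each mouse, which does not hold for every single marker. Muc2 had 1.36 and 3.39 CPM in iDKO against 2.90 and 2.03 CPM in control, so it was higher in iDKO of mouse 2. Tff3, a large part of the goblet sum, had 40.9 and 72.6 CPM in iDKO against 127 and 139 CPM in control. Dissociation-induced genes summed to 995 and 888 CPM in iDKO against 1027 and 1097 CPM in control. Stem-like markers summed to 5321 and 2459.6 CPM in iDKO against 4399 and 1983 CPM in control, higher in iDKO of each mouse and with a larger gap between the mice. Restricted to stem-like cells the block fit called 7 of the genes higher (3.22% of all genes), and restricted to cycling-like cells 5 (0.896%). DESeq2 with the block called 4 (0.451%), limma-trend with the block 11 (4.25%), and cells gated by marker UMIs with the block 7 (3.56%), each with 0 lower.

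**Figure D3:**
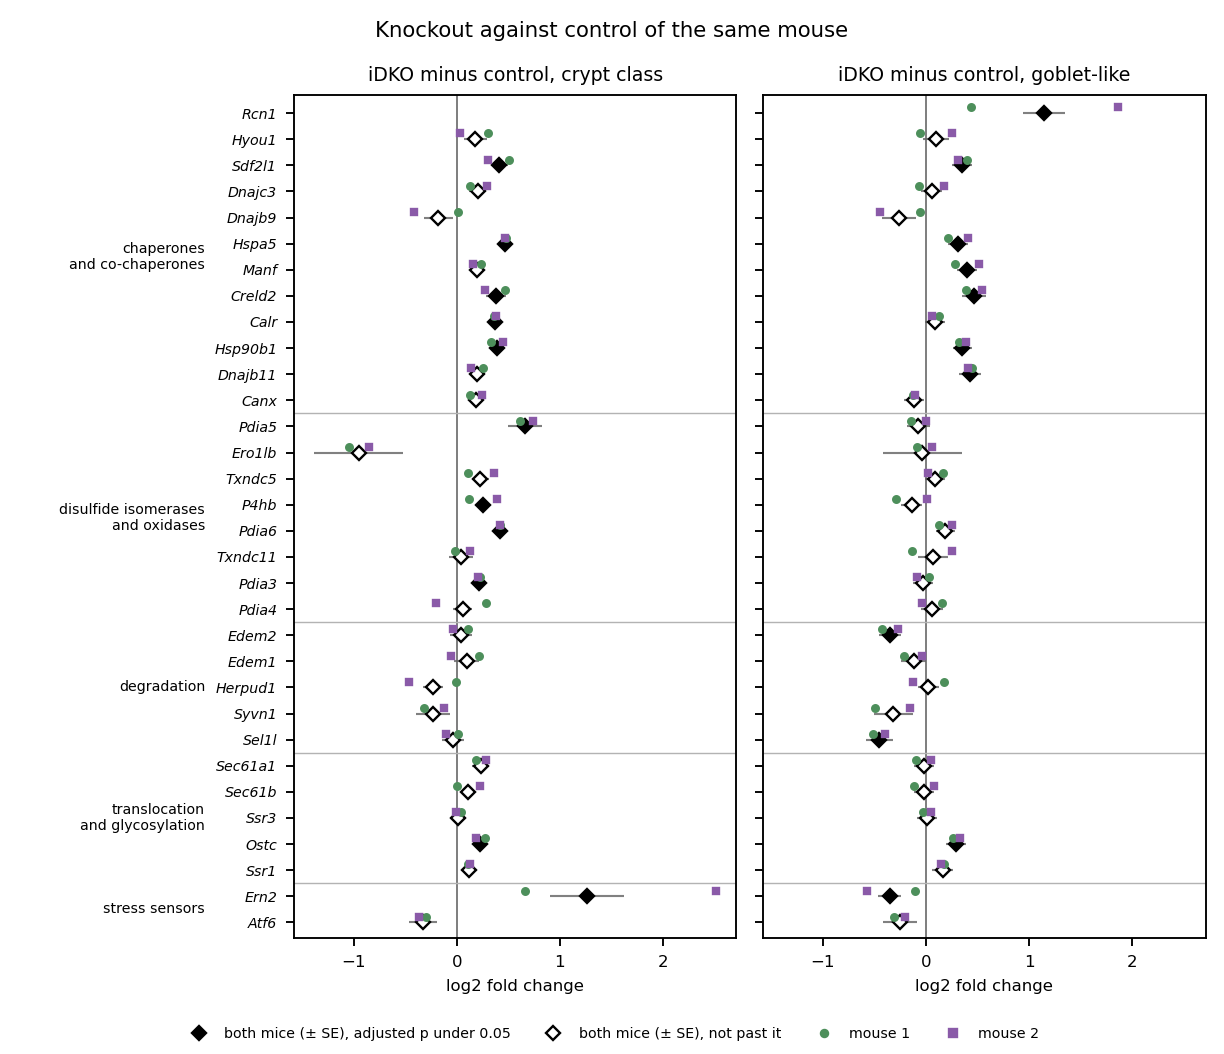
Log2 fold change of iDKO over control for the 32 genes (rows) in crypt and goblet-like cells: circles and squares give mouse 1 and mouse 2, diamonds the fit of both mice ± SE with the mouse as a block, filled at adjusted p under 0.05. In crypt cells 11 diamonds are filled, all right of 0; in goblet-like cells 8 are filled right of 0 and 3 left of it.

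In goblet-like cells the block fit called 8 of the 32 genes higher in iDKO and 3 lower, where 6.9% of all 10278 genes were called higher and 5.65% lower. The group alone called 0 in either direction (0% of all genes higher and 0% lower), with 5 higher and 2 lower at an unadjusted p under 0.05, and 0 by DESeq2. The 8 are 7 of the 12 chaperones and Ostc, and the 3 lower are Sel1l, Edem2 and Ern2. Rcn1 had 26.8 and 57.2 CPM in iDKO 1 and 2, against 19.8 and 15.7 CPM in control 1 and 2 (1.15 ± 0.21, adjusted p = 0.000257), with the larger gap in mouse 2. Creld2 had 90.5 and 113 CPM in iDKO 1 and 2, against 69 and 77.9 CPM in control 1 and 2 (0.47 ± 0.11, adjusted p = 0.00562). Hspa5 had 875 and 1113 CPM in iDKO 1 and 2, against 752 and 841 CPM in control 1 and 2 (0.31 ± 0.10, adjusted p = 0.0292), where iDKO and control did not overlap. Dnajb11 (0.43 ± 0.10, adjusted p = 0.0048), Manf (0.40 ± 0.10, adjusted p = 0.00534), Hsp90b1 (0.36 ± 0.10, adjusted p = 0.0117), Sdf2l1 (0.35 ± 0.10, adjusted p = 0.0168) and Ostc (0.29 ± 0.10, adjusted p = 0.0392) are the others.

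On the lower side, Sel1l had 44.1 and 46.3 CPM in iDKO 1 and 2, against 62.8 and 61 CPM in control 1 and 2 (−0.45 ± 0.13, adjusted p = 0.0201). Edem2 had 100.3 and 112 CPM in iDKO 1 and 2, against 135 and 135 CPM in control 1 and 2 (−0.35 ± 0.11, adjusted p = 0.0268), and Ern2 had 98.3 and 114 CPM in iDKO 1 and 2, against 106 and 169.99 CPM in control 1 and 2 (−0.35 ± 0.11, adjusted p = 0.036). Sel1l and Edem2 were below both controls in each iDKO library. Scaled to total UMIs alone, or with cells gated by marker UMIs, the block fit called 0 of the 32 lower. Beside these results, the goblet markers of the class summed to 17481 and 28479.7 CPM in iDKO against 28529 and 43732 CPM in control, the Paneth markers to 30974 and 56757 CPM in iDKO against 49723 and 83152 CPM in control, the cycling markers to 2005 and 1815 CPM in iDKO against 1372 and 966 CPM in control and the dissociation genes to 1255 and 1475 CPM in iDKO against 1746 and 2707 CPM in control. In each mouse the goblet, Paneth and dissociation sums were lower and the cycling sum higher in iDKO.

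Since the 2 goblet-like clusters took different parts in the libraries, each was also fitted alone, a split chosen after the class result was seen. In the Dll1 cluster, 12 of 31 genes tested were higher in iDKO and 0 lower with the mouse as a block (1.09% of all 9626 genes called higher and 0.997% lower), with a median of 0.39 over the group and 0.00 over all genes. Of the 31, 24 were higher in both mice and 1 lower in both, with no share of all genes at hand for these counts. The 12 are 8 chaperones (Hspa5, Hsp90b1, Dnajb11, Sdf2l1, Manf, Creld2, Calr, Rcn1), Pdia6, Txndc5, Ssr1 and Ostc. Hspa5 had 815 and 954 CPM in iDKO 1 and 2, against 536 and 512 CPM in control 1 and 2 (0.74 ± 0.10, adjusted p = 0.00379). Sdf2l1 had 188 and 259 CPM in iDKO 1 and 2, against 110.3 and 144 CPM in control 1 and 2 (0.81 ± 0.12, adjusted p = 0.00407). Rcn1 had 21.1 and 47.9 CPM in iDKO 1 and 2, against 9.54 and 5.27 CPM in control 1 and 2 (1.77 ± 0.34, adjusted p = 0.017). For these 3 genes the groups did not overlap, and control 2 rests on 17 cells. As CPM without TMM scaling, in this cluster Muc2 had 348 and 784 CPM in iDKO, against 242 and 439 CPM in control. Clca1 had 8.23 and 48.9 CPM in iDKO, against 1.52 and 7.79 CPM in control. Agr2 had 5411 and 10717 CPM in iDKO, against 1972 and 2744 CPM in control. Atoh1 had 94.9 and 118 CPM in iDKO, against 91.1 and 89.6 CPM in control. Mki67 had 274 and 326 CPM in iDKO, against 219 and 259.7 CPM in control. Muc2, Clca1, Agr2, Atoh1 and Mki67 were each higher in iDKO of each mouse, Atoh1 by little in mouse 1. The other goblet markers are not given for this cluster, and the part of these genes in the result was not tested. Without the block 1 gene was called higher and 0 lower (0.145% of all genes higher and 0.145% lower).

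In the Clca1 cluster, 3 of 32 genes were higher and 0 lower (2.58% of all 8903 genes called higher and 2.41% lower), with a median of 0.05. Without the block 0 were called in either direction (0.0337% and 0.0225% of all genes). The 3 are Rcn1 (1.14 ± 0.21, adjusted p = 7.8e-06), Manf (0.44 ± 0.11, adjusted p = 0.00269) and Ostc (0.34 ± 0.11, adjusted p = 0.0452). Rcn1 had 44.8 and 67.2 CPM in iDKO 1 and 2, against 36.6 and 19.1 CPM in control 1 and 2, with the far larger step in mouse 2. The small p for Rcn1, from a fit with 1 residual degree of freedom, thus does not measure agreement of the mice. In the edgeR fit without the block its adjusted p was 0.341. Hspa5 had 1133 and 1281 CPM in iDKO 1 and 2, against 1121 and 931 CPM in control 1 and 2 there (0.24 ± 0.10, adjusted p = 0.175), with almost no step in mouse 1. Sel1l had 71.4 and 49.5 CPM in iDKO 1 and 2, against 87.4 and 69.8 CPM in control 1 and 2 (−0.41 ± 0.16, adjusted p = 0.143) and Ern2 207 and 153 CPM in iDKO 1 and 2, against 189 and 198 CPM in control 1 and 2 (−0.15 ± 0.13, adjusted p = 0.633). Sel1l, Edem2 and Ern2, lower in the whole goblet-like class, were not called in either cluster. Edem2 was at −0.24 ± 0.13, adjusted p = 0.341 in the Clca1 cluster and 0.10 ± 0.16, adjusted p = 0.824 in the Dll1 cluster. Ern2 was at 0.08 ± 0.16, adjusted p = 0.865 in the Dll1 cluster. The size for Sel1l in the Clca1 cluster was near that in the class. The difference of the iDKO effect between the clusters, Dll1 minus Clca1, was tested in edgeR by an interaction term, blocked by library. It passed for 0 genes upward and 0 downward of 32 (0.0201% of all genes called higher and 0.0101% lower). At an unadjusted p under 0.05, 14 of the 32 were higher and 0 lower, and the share of all genes there is not given. The median difference was 0.43 over the 32 genes and 0.02 over all genes. With 0 genes called in a split chosen after the class result was seen, no difference between the clusters is read from these values.

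**Figure D4:**
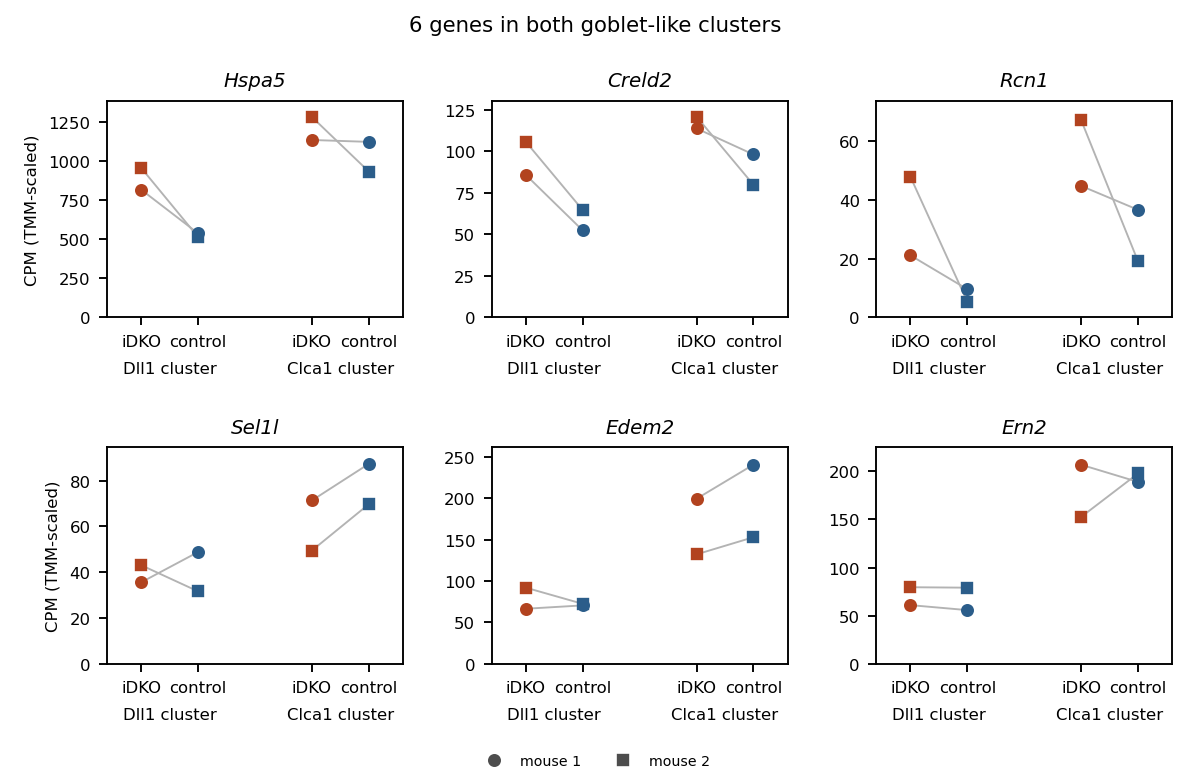
Levels (TMM-scaled CPM, axis from 0) of 6 genes in the Dll1 and Clca1 clusters of goblet-like cells, iDKO left of control, with circles for mouse 1, squares for mouse 2 and a line joining the libraries of a mouse. Hspa5, Creld2 and Rcn1 lie above control in both iDKO libraries of the Dll1 cluster, while Ern2 differs between the clusters more than between the groups.

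In the other classes the block fit called 0 of the 32 genes in all secretory cells, 0 of 32 in Paneth-like cells and 0 of 29 in enterocyte-like cells. The shares of all genes called higher and lower were 0.609% and 0.609%, 0.168% and 0.116%, and 1.36% and 1.07% in these classes, so few genes of any kind passed there. With the group alone the counts were also 0 (0.0129% of all genes lower in Paneth-like cells and 0% in the other cases), with 4, 3 and 0 higher and 0 lower at an unadjusted p under 0.05. DESeq2 without the block called 0 in each. In all cells summed, the block fit called 1 gene higher (Creld2, 0.39 ± 0.08, adjusted p = 0.0326) and 1 lower (Dnajb9, −0.49 ± 0.10, adjusted p = 0.0257), against 4.43% and 8.29% of all genes. With goblet-like and Paneth-like cells weighted equally, the secretory block fit called 5 higher and 0 lower, against 5.54% and 4.66% of all genes.

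By size alone and without the block, the ends of the list were as follows. In secretory cells the highest log2 fold change was that of Rcn1, with 29.7 and 50.1 CPM in iDKO 1 and 2, against 20.8 and 16.3 CPM in control 1 and 2 (1.10 ± 0.27, adjusted p = 0.439), and the lowest that of Ern2, with 86 and 101 CPM in iDKO 1 and 2, against 96.5 and 144 CPM in control 1 and 2 (−0.36 ± 0.21, adjusted p = 0.604). In Paneth-like cells the highest log2 fold change was that of Rcn1, with 39.2 and 45.6 CPM in iDKO 1 and 2, against 20.4 and 18.2 CPM in control 1 and 2 (1.13 ± 0.26, adjusted p = 0.761), and the lowest that of Ero1lb, with 18.5 and 7.28 CPM in iDKO 1 and 2, against 22 and 7.08 CPM in control 1 and 2 (−0.45 ± 0.52, adjusted p = 0.911). In both classes Rcn1 lay above both controls in each iDKO library, and the named genes did not pass. In enterocyte-like cells the highest log2 fold change was that of Pdia5, with 5.02 and 2.45 CPM in iDKO 1 and 2, against 2.59 and 2.93 CPM in control 1 and 2 (0.34 ± 0.60, adjusted p = 1), and the lowest that of Sdf2l1, with 32.9 and 63 CPM in iDKO 1 and 2, against 43.6 and 79.8 CPM in control 1 and 2 (−0.34 ± 0.37, adjusted p = 1). In all cells the highest log2 fold change was that of Rcn1, with 5.32 and 12.8 CPM in iDKO 1 and 2, against 5.44 and 3.25 CPM in control 1 and 2 (1.06 ± 0.52, adjusted p = 0.579), and the lowest that of Dnajb9, with 19.2 and 23.5 CPM in iDKO 1 and 2, against 26.1 and 34 CPM in control 1 and 2 (−0.49 ± 0.20, adjusted p = 0.563).

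Whether the knockout difference itself differed between secretory and crypt cells was tested with an interaction term and the library as a block. Of the 32 genes, 0 passed in either direction (0.117% of all genes higher and 0.0668% lower); 1 was higher and 7 lower in secretory cells at an unadjusted p under 0.05. The median difference was −0.11 over the 32 genes and −0.02 over all genes. The sizes were −1.55 ± 0.37, adjusted p = 0.16 for Ern2 and −0.71 ± 0.19, adjusted p = 0.233 for Pdia5, and 1.09 ± 0.55, adjusted p = 0.7 for Rcn1 at the high end. Leaving out a library leaves 1 library in its group, so no count is read from such fits.

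In the wider ER list the block fit in crypt cells called 9 of 127 genes higher in iDKO (7.09%) and 5 lower (3.94%), against 4.43% and 5.48% of all genes. Agr2 had 184 and 275 CPM in iDKO 1 and 2, against 104 and 74 CPM in control 1 and 2 (1.33 ± 0.12, adjusted p = 1.9e-08), and Creb3l1 had 26.9 and 25.4 CPM in iDKO 1 and 2, against 13.6 and 8.85 CPM in control 1 and 2 (1.19 ± 0.13, adjusted p = 1.7e-07). Fkbp11, a proline isomerase of secretory cells, had 28.7 and 33.3 CPM in iDKO 1 and 2, against 19.9 and 20.9 CPM in control 1 and 2 (0.59 ± 0.10, adjusted p = 0.000216). All 3 were above both controls in each iDKO library. Agr2 and Creb3l1 are also among the leading genes of the goblet-like Dll1 cluster, and the cause of the difference was not tested. Ddit3, the stress factor downstream of Perk, had 7.25 and 6.50 CPM in iDKO 1 and 2, against 9.08 and 11.8 CPM in control 1 and 2 (−0.57 ± 0.17, adjusted p = 0.0325), below both controls. Crebrf was lower too (−0.66 ± 0.19, adjusted p = 0.0218). Xbp1 had 79.7 and 63.2 CPM in iDKO 1 and 2, against 61.5 and 58.9 CPM in control 1 and 2 and did not pass (0.25 ± 0.09, adjusted p = 0.0675). In goblet-like cells 14 of 125 were higher (11.2%) and 6 lower (4.8%), against 6.9% and 5.65% of all genes.

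Read against the promoters shown first, 5 of the 9 genes with the full element (55.6%) were among the 11 called higher in iDKO crypt cells: Hspa5, Hsp90b1, Pdia6, Calr and Creld2. These 11 are out of 31 members tested, and 4.43% of all genes were called higher. Genes outside the group that hold the element were not looked at. Canx, Dnajc3, Syvn1 and Ero1lb hold the same element and were not called. The other 6 called genes have no full element in the window or no window in the table. Herpud1 and Dnajb11, with the second form of the element, and Txndc5 and Txndc11, with the short core, were not called in crypt cells. These counts describe the lists and carry no test.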

How the data were processed

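Single-cell RNA was measured in 4 libraries, 2 iDKO and 2 control. The deposited matrices hold counts of UMIs per gene and barcode, which the authors made with Cell Ranger 3.0.1 and build mm10, per the submitters' processing notes (software version 3.0.0 per the file headers). The features include 0 mitochondrially encoded genes, so no mitochondrial filter was used; 2 of 5600 distinct barcodes occur in more than 1 library.

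Cells with under 500 genes (173) and the highest Scrublet scores at 0.8% per 1000 barcodes (67) were removed; Scrublet's automatic threshold marked 18 and was not used. Counts scaled to 10000 per cell, 2000 variable genes without the 32 genes and the wider ER list, 30 principal components and 15 neighbours gave 17 Leiden clusters (scanpy 1.11.5, leidenalg 0.10.2, resolution 1), of which 14 were named from fixed marker lists and 3 (750 cells) stayed unnamed and entered only sums of all cells. Names are rebuilt here and are not the authors' annotation.

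UMIs were summed per library and class (at least 10 cells) and fitted with edgeR 4.0.16 in R 4.3.3 (filterByExpr, TMM, quasi-likelihood test, Benjamini-Hochberg over all genes, threshold 0.05). The secretory against crypt fit and the crypt knockout fits were also run on simulated counts. Those counts held no mouse effect, so they cannot show how the mouse block handles one. Class contrasts have the library as a block. Knockout contrasts were planned with the group alone, with the mouse as a replicate block as an alternative. Same-numbered libraries come from the same mouse, and their deviations from group means correlated at 0.660 in all cells, 0.510 in crypt, 0.451 in goblet-like, 0.386 in secretory, 0.255 in Paneth-like and 0.548 in enterocyte-like sums, so blocked values are printed. Alternatives used DESeq2 1.42.0 and limma 3.58.1, other scaling, filters, cell definitions and left-out libraries. Intervals and the limit of 3 UMIs cover counting error only.

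The members, lists and tests were chosen with earlier results of these data known. Per-library values are given for 20 members set by name and for the members with the highest and lowest fold change of each contrast; other named genes were chosen after their values were seen. Promoter sequences are from RefSeq (GRCm38.p6), matched by symbol or synonym.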

Additional observations from a re-analysis of the deposited data

Results flagged for a closer look

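Hyou1, which recharges BiP with nucleotide, was flagged because iDKO lay above control in crypt cells and below it in Paneth-like and enterocyte-like cells. In crypt cells it had 21.7 and 19.7 CPM in iDKO 1 and 2, against 17.6 and 19.3 CPM in control 1 and 2, so both iDKO libraries lay above both controls. In Paneth-like cells it had 67.2 and 56.7 CPM in iDKO 1 and 2, against 67.8 and 71.8 CPM in control 1 and 2, and in enterocyte-like cells 26.8 and 26 CPM in iDKO 1 and 2, against 32.4 and 33.5 CPM in control 1 and 2, so both iDKO libraries lay below both controls. Without the block, the log2 fold change of iDKO over control was 0.17 ± 0.13 in crypt cells, −0.18 ± 0.21 in Paneth-like cells and −0.32 ± 0.22 in enterocyte-like cells. The gaps between the groups were small in crypt and Paneth-like cells. Of all genes in crypt cells, 19.3% had both iDKO levels above both controls and 20.1% both below, and no such share is at hand for the other classes. The difference between the classes was not tested, and Hyou1 passed the threshold in 0 of these comparisons, so no difference in direction is read from it.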

How the results depend on the processing

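The 32 genes stayed higher in secretory, goblet-like and Paneth-like cells than in crypt when any 1 library was left out. Most counts below are of members only. The share of all genes called moved with the setting too, so a changed count is not by itself a result about the members. A count printed without its share is a description only. The knockout counts moved with the replicate block: members called higher went to 11 in crypt, 8 in goblet-like and 1 in all cells, and lower to 3 in goblet-like and 1 in all cells, against 0 without it. In crypt cells the higher count was 1 with DESeq2 (0.221% of all genes) and 2 with no filter on low counts (0.764%). With the block the higher count was 4 (DESeq2), 7 (gated cells), 7 (stem-like only) and 5 (cycling-like only), with the shares given above. It was 11 with limma-trend, total UMIs, or without markers and the 50 most abundant genes. In goblet-like cells it was 1 with no filter (1.14% of all genes). With the block it was 1 (DESeq2), 9 (gated) and 8 (limma-trend, total UMIs, or without markers). It was 12 in the Dll1 cluster (1.09% of all genes), 1 there without the block (0.145%), and 3 in the Clca1 cluster (2.58%). Lower calls in goblet-like cells were 3 without markers and 2 with limma-trend. In all cells, with the block, the higher count was 1 (DESeq2, gated), 3 (without markers), 4 (total UMIs) and 2 (limma-trend), and lower calls were 1 in each but DESeq2. In secretory cells it was 1 with no filter (1.08% of all genes) and, with the block, 5 (equal shares, total UMIs) and 1 (limma-trend). In Paneth-like cells it was 1 with no filter (0.27% of all genes) and, with the block, 1 for gated cells, total UMIs and without markers. Knockout fits with 1 library left out have 1 library in a group and are not read for counts.

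Enteroendocrine-like cells had 11 higher with no filter (21.8% of all genes) and 10 with at least 1000 genes per cell (27.1%). They had 10 to 16 higher with 1 library left out. Lower counts were 7 with no filter (22.5%), 7 with 1000 genes (33.6%) and 4 at resolution 2 (33.8%). They were 6 gated and 0 with total UMIs. Lower counts in enterocyte-like cells were 9 (no filter), 8 (gated), 9 (total UMIs) and 5 to 9 with 1 library left out. Paneth-like against goblet-like gave 7 higher and 2 lower with 1000 genes (4.69% and 5.44% of all genes). It gave 4 and 1 at resolution 2 (236 and 195 of 10817 genes) and 4 and 2 gated (1.35% and 0.977%). With total UMIs it gave 6 and 11 (1.93% and 60.8%). The main fit had 11.3% and 10.9% of all genes. The secretory minus crypt difference of the knockout effect gave 3 lower with no filter (0.552% of all genes).

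Of the 131 single-gene results followed through the settings, 15 values changed sign. Over all 32 members, Paneth-like over goblet-like was positive for 31 and, with total UMIs, for 13. Of the values followed, those that turned there were Hspa5 −0.0746, Sdf2l1 −0.113, Pdia6 −0.221, Txndc11 −0.0987, Atf6 −0.146 and Sec61b −0.0402; with gated cells Sdf2l1 −0.0281, Pdia6 −0.086 and Atf6 −0.189; at resolution 2 Pdia6 −0.0784. In goblet-like knockout contrasts they were Edem2 0.0963 with the block and 0.161 without, and Ern2 0.0751 and 0.134, in the Dll1 cluster. Ern2 ranged over −0.673 to 0.0144 when 1 library was left out, with the positive value without control 2. The cause was not tested. With the block, 1 residual degree of freedom remains and no library can be left out. The cluster splits, total-UMI scaling and the combined settings were chosen after seeing the data.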

Other observations

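Fetal-like cells, outside every comparison above, came mostly from mouse 2 (11 and 119 cells in iDKO, 11 and 68 cells in control). As CPM without TMM scaling, Hspa5 had 735 and 374 CPM in iDKO 1 and 2 and 305 and 371 CPM in control 1 and 2, Calr had 823 and 482 CPM in iDKO 1 and 2 and 453 and 494 CPM in control 1 and 2 and P4hb had 448 and 169 CPM in iDKO 1 and 2 and 249.6 and 162 CPM in control 1 and 2. The mouse 1 sums rest on 11 cells each, and no test was made.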
